A study of Homo sapiens with 18 samples.

Results

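The keratin family was followed over 18 microarrays of 2 oral squamous cell carcinoma lines, as the genes whose symbol is KRT and a number up to KRT86, with pseudogenes, antisense RNAs and keratin-associated proteins left out. By this rule 48 named genes were members, of 23786 genes on the array, 1328 of which had no name in the annotation used and could hold further keratins that were not analysed here. The 48 were 3 basal keratins (KRT5, KRT14, KRT15), 2 keratins of activated epithelium, 15 suprabasal keratins, 5 keratins of simple epithelium, 9 keratins of the hair follicle root sheath and 14 hair keratins. HSC-3 and CAL27, both established from human tongue carcinomas and used in the study as a metastatic and a non-metastatic model, were given 10 μM ICG-001 or 0.1% DMSO. ICG-001 binds the coactivator CBP and keeps β-catenin from it. In a separate experiment HSC-3 cells received 25 nM of a pool of siRNAs against CTNNB1, the gene of β-catenin, or 25 nM of a pool of non-targeting siRNAs. Each of the 6 groups held 3 wells. The ICG-001 and DMSO wells were harvested at 48 to 64 h, and the siRNA wells 48 h after transfection by the study's methods, though the sample records give 48 to 64 h for all. The wells were separate but each line stands for a single tumor, so the spread between wells is that of parallel cultures of 1 line at 1 dose.

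Keratins are the intermediate filament proteins of epithelial cells. A filament is built from pairs of an acidic type I and a neutral to basic type II chain, and the pair in use follows the type and the state of the epithelium. KRT5 and KRT14 form the network of the dividing basal layer of stratified epithelium, with KRT15 as a further basal type I chain that also marks hair follicle stem cells. Cells that leave the basal layer switch to suprabasal pairs such as KRT1 with KRT10 in skin or KRT4 with KRT13 in oral mucosa. KRT8, KRT18, KRT19 and KRT7 are typical of simple epithelium and are often found in squamous carcinomas, and the hair keratins are made in the cortex and cuticle of the hair shaft. Keratins of hair are among the classes of gene with known Wnt input, since LEF1, a partner of β-catenin, acts in the hair follicle.

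The sequences just before the start sites were read for the motifs of factors tied to this biology. They came from the RefSeq promoter table of GRCh38.p14, which matched 33 of the 48 keratins. Those not matched included KRT14, KRT15, KRT16, KRT80, KRT7, KRT18 and KRT19. Of the keratins called in the main tests below, KRT5 alone was matched, so the shares given here do not describe the others. The search covered 250 bases upstream on both strands. For each keratin the first promoter listed was read, while the share over all promoters counts every promoter listed, so a gene may enter it more than once. The TCF/LEF core CTTTGA, the sequence to which the DNA-binding partners of β-catenin attach, was present before 11 of the 33 keratins (33.3%) and before 3937 of all 35116 promoters (11.2%). Of the 13 hair keratins matched, 9 held it (69.2%), namely KRT31, KRT32, KRT33A, KRT33B, KRT35, KRT37, KRT38, KRT39 and KRT85. The other 2 were KRT2 and KRT26. Hair keratins are related copies that lie in clusters, so their promoters are not independent. The letters of the TATA box, TATAAA, were present anywhere in the window before 19 of the 33 keratins (57.6%) and 10.7% of all promoters. In most of these keratins they lay 27 to 31 bases before the start. They lay farther off in KRT84 (228 bases), KRT26 (152 and 146), KRT39 (85) and KRT73 (53). The AP-1 motif TGANTCA was present before 0 of the 33 keratins and 6.57% of all promoters, and the antioxidant response element core TGACNNNGC before 7 keratins (21.2%) and 10.9% of all promoters. The GCGTG core of the xenobiotic response element was present before 4 keratins (12.1%) and 32.2% of all promoters. A match is a run of letters and was not tested as a binding site.

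Below are the 250 bases upstream of 3 keratins, each 5′ to 3′ on the strand of the gene, with the motif matches in capitals. KRT5 is shown as a basal keratin whose transcript was measured well above the array median on every array, and KRT31 and KRT38 as hair keratins with TCF/LEF matches, picked after the matches were seen. In KRT5 the capitals are the antioxidant core on the reverse strand, 236 bases before the start, and CTTTGA was not found in this window. In KRT31 they are CTTTGA at 243 bases, TGACNNNGC at 185 bases and TATAAA at 29 bases before the start. In KRT38 they are CTTTGA, on 1 strand or the other, at 245, 193 and 66 bases, and TATAAA at 30 bases.
KRT5, chr12:52520395-52520644, minus strand: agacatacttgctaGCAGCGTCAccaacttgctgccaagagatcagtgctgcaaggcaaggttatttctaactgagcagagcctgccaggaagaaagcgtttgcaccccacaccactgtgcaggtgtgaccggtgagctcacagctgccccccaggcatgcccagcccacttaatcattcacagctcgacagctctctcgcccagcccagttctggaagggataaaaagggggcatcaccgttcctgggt
KRT31, chr17:41397609-41397858, minus strand: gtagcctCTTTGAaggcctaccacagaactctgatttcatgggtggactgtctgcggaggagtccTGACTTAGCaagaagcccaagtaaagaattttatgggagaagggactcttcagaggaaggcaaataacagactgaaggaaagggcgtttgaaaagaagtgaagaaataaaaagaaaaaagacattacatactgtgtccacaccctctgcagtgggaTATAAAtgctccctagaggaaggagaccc
KRT38, chr17:41440984-41441233, minus strand: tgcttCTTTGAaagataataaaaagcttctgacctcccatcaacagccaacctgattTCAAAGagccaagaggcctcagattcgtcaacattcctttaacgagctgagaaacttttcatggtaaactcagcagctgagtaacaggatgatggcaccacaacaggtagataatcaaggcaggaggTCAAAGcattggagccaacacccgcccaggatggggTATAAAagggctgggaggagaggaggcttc

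Few of the 48 named keratins were expressed above the middle of the array. All values are log2 expression after robust multi-array averaging (RMA), with medians of 4.68 to 4.77 per array, and levels are compared within a gene only, since probes differ between genes. A gene entered the tests if any array of its experiment had it above the median of that array. On the 12 ICG-001 and DMSO arrays 11 keratins met this, and 7 of them were above the median on all 12 arrays: KRT5, KRT14, KRT15, KRT16, KRT80, KRT8 and KRT18. KRT7 was above it on 10 of 12 arrays and KRT19 on 8 of 12, while KRT31 and KRT37, which are hair keratins, were above it on 1 of 12. On the 6 siRNA arrays 10 keratins were tested, the same except that KRT85 was above the median on 1 array in place of KRT31 and KRT37. KRT16, induced in wounded and activated epidermis, stayed just above the median, at 4.88 to 5.46 on the 12 ICG-001 and DMSO arrays.

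The other 36 members were below the median on all 18 arrays and were not tested. They were KRT6C of activated epithelium, the suprabasal KRT1, KRT2, KRT3, KRT4, KRT9, KRT10, KRT12, KRT13, KRT23, KRT24, KRT76, KRT77, KRT78 and KRT79, the intestinal KRT20, all 9 root sheath keratins (KRT25 to KRT28 and KRT71 to KRT75), and the hair keratins KRT32, KRT33A, KRT33B, KRT34, KRT35, KRT36, KRT38, KRT39, KRT40, KRT83 and KRT84. The 37 members not tested on the ICG-001 and DMSO arrays lay 0.14 to 3.74 log2 units below the median of their array. KRT1, KRT10, KRT4 and KRT13, which make the usual suprabasal networks, were thus below the middle of the array with ICG-001 as well as with DMSO. Among these 37 members ICG-001 moved the value by -0.46 to 0.29 log2 units in HSC-3 and by -0.46 to 0.31 in CAL27 cells.

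**Figure D1:**
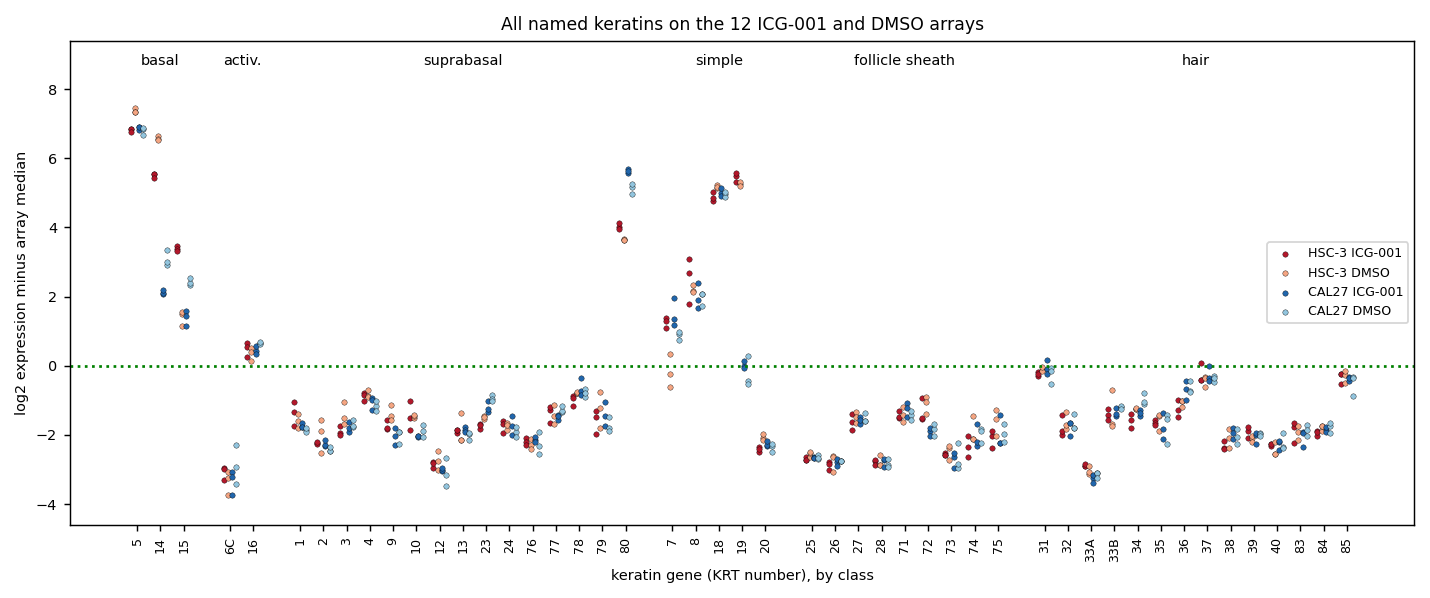
Log2 expression minus the array median (vertical axis) for each of the 48 keratins (horizontal axis, KRT number by class) on the 12 ICG-001 and DMSO arrays, with 1 point per array colored by group. The basal keratins, KRT80 and the simple epithelial KRT8 and KRT18 lie above the dotted line of the array median on all arrays, while the suprabasal keratins other than KRT80, the root sheath keratins and nearly all hair keratins lie under it.

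The lines were checked against markers set for their tissue. All 7 squamous epithelial markers that the annotation names (CDH1, EPCAM, ITGA6, ITGB4, DSG3, DSC3 and PERP) passed the filter. Of 8 fibroblast markers 2 were tested, COL1A1 and THY1, and none was called in HSC-3 or CAL27 cells on ICG-001. Of the 6 leukocyte markers 5 were named and 2 tested, CD14 and CD68, while PTPRC, which defines leukocytes, was between 1.44 and 1.77. Of the 4 endothelial markers CDH5 was tested, whereas PECAM1, VWF and KDR were below the median on all arrays. Arrays of a group correlated with each other at an r of 0.993 or more.

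The first comparison asks how the keratins of the lines differed on DMSO, without the inhibitor. HSC-3 cells held far more KRT19 and KRT14 than CAL27 cells and somewhat more KRT5, whereas KRT80, KRT7, KRT15 and KRT16 were lower in HSC-3. A call here means a limma adjusted p no greater than 0.05, with the adjustment over all tested genes. By this rule 3 keratins were higher and 4 lower in HSC-3 among 11 tested, where 58.6% of all 13493 tested genes were called (30.1% higher and 28.6% lower), so the share of keratins called (63.6%) was close to that of the array. The HSC-3 and CAL27 arrays did not overlap in 9 of the 11, against 68.2% of all tested genes. In bulk RNA, fewer cells with a transcript and less transcript per cell cannot be told apart.

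KRT19, which lacks most of the tail of other keratins, was at 9.93 to 10.03 on the HSC-3 DMSO arrays, against 4.23 to 5.01 on the CAL27 DMSO arrays. The CAL27 values lie at the middle of the array, and KRT19 was above the array median on 1 of those 3 arrays, so that it passed the filter chiefly through HSC-3. The difference was 5.46 ± 0.19 (SE, n = 3 each, limma adjusted p = 7.88e-07). KRT14 averaged 11.30 ± 0.05 in HSC-3 DMSO and 7.84 ± 0.25 in CAL27 DMSO cells (SD, n = 3 each), a difference of 3.46 ± 0.13 on the log2 scale (SE, adjusted p = 1.02e-06). Its partner KRT5 differed by only 0.56 ± 0.09 (adjusted p = 0.00129). Both chains of the basal pair were thus higher in HSC-3, and the difference between their amounts was not tested.

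KRT80, a type II keratin of differentiating cells, was lower in HSC-3, at 8.38 to 8.40 in HSC-3 DMSO and 9.72 to 10.02 in CAL27 DMSO cells (log2 difference -1.5 ± 0.10, adjusted p = 1.22e-05). KRT7 (-1.07 ± 0.22, adjusted p = 0.00418) and KRT15 (-1.05 ± 0.12, adjusted p = 0.000241) were also lower in HSC-3. KRT16 differed by -0.33 (adjusted p = 0.0336), a call that was lost in 5 of the 6 fits with 1 array left out, where the adjusted p reached 0.0971. Those 5 were the fits without CAL27 DMSO replicate 1, 2 or 3 or without HSC-3 DMSO replicate 2 or 3. The simple epithelial pair KRT8 and KRT18 showed no call between the lines, with log2 differences of 0.23 (95% CI -0.05 to 0.51) and 0.20 (95% CI 0.02 to 0.39). KRT18 was called there with a trend and robust prior (adjusted p = 0.00955), with equal array medians (0.0448) and in 1 fit over the 12 arrays (0.0498). CDH5 was lower in HSC-3 DMSO than in CAL27 DMSO cells, at 3.71 to 3.94 against 8.10 to 8.34. The log2 of the summed endothelial list was 5.25 to 5.37 in HSC-3 DMSO and 8.22 to 8.46 in CAL27 DMSO cells. Its other markers had near equal means in HSC-3 DMSO and CAL27 DMSO cells, so the sum followed CDH5. These means were 2.64 and 2.55 for PECAM1, 3.63 and 3.67 for VWF, and 2.66 and 2.66 for KDR. The part of the endothelial list in the keratin differences was not tested. The summed leukocyte list was 8.03 to 8.16 in HSC-3 DMSO and 9.04 to 9.25 in CAL27 DMSO cells, with CD14 and CD68 both lower in HSC-3, and its part was not tested either.

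**Figure D2:**
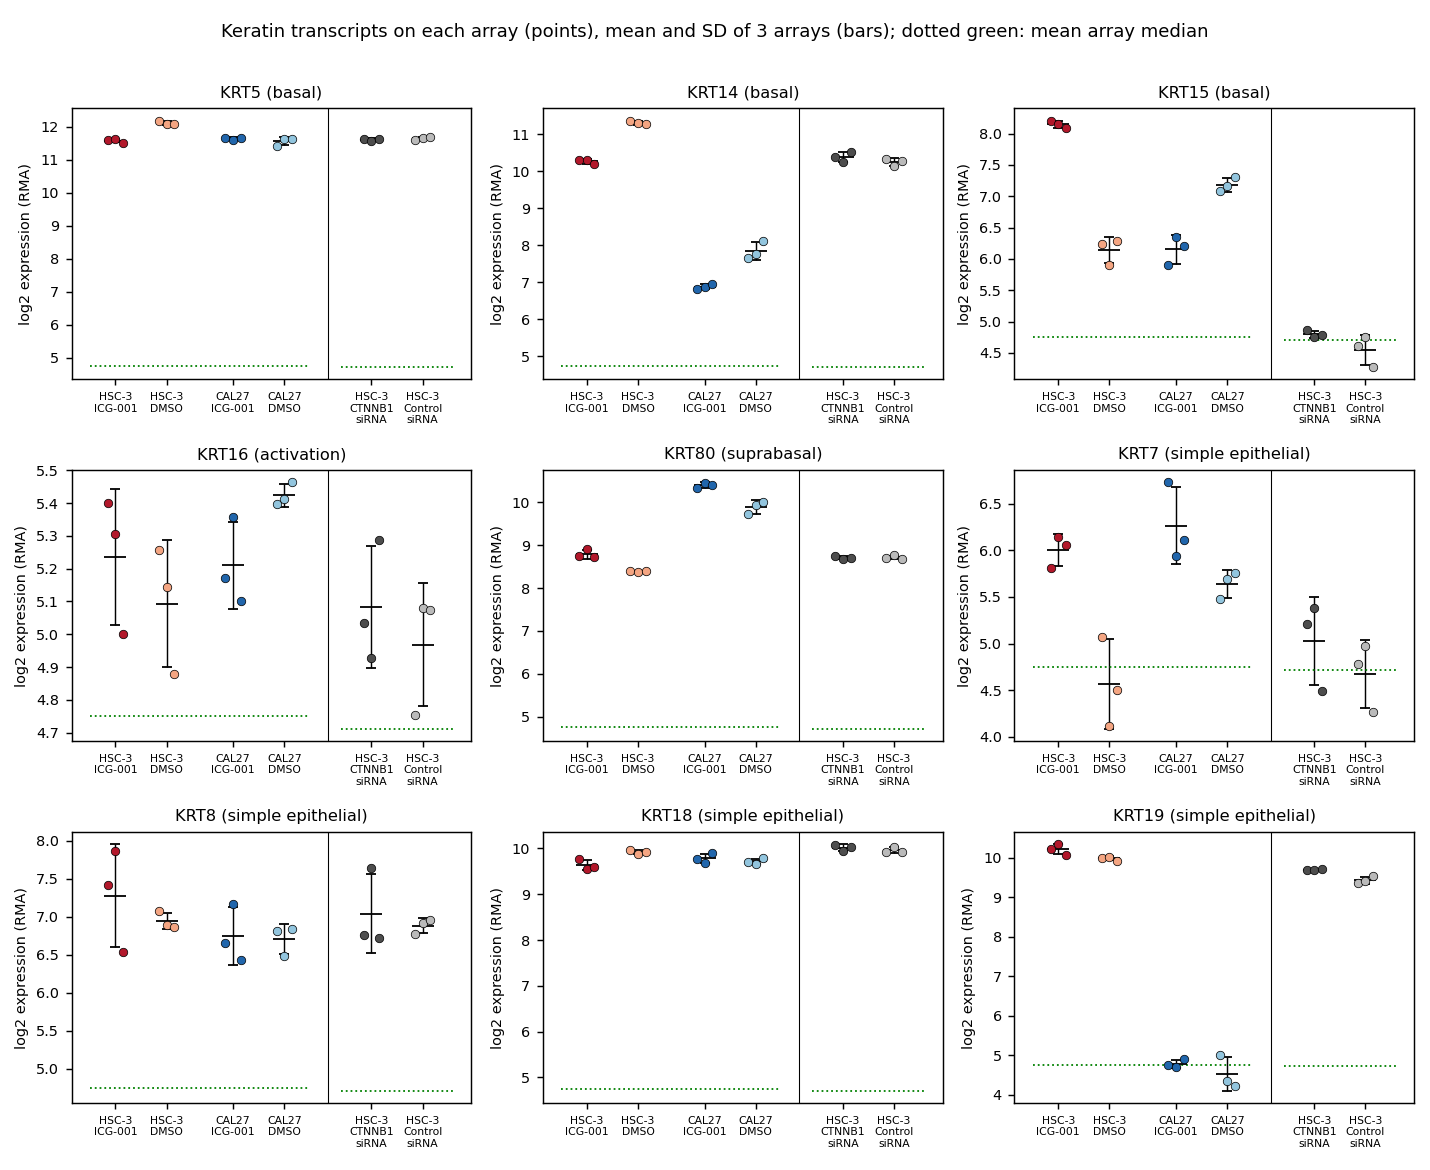
Log2 expression (vertical axis, own range in each panel) of the 9 keratins tested in both experiments, by group, with 1 point per array and bars for the mean and SD of 3 arrays; the vertical line parts the ICG-001 arrays from the siRNA arrays, which were normalized apart, and the dotted line is the mean array median. The KRT15 points of ICG-001 lie above those of DMSO in HSC-3 and below them in CAL27, while the KRT14 points of ICG-001 lie below those of DMSO in both lines.

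The next comparison asks which keratins changed in HSC-3 cells given ICG-001. The basal pair KRT5 and KRT14 fell on ICG-001, while the third basal keratin, KRT15, rose 4.04-fold and the simple epithelial KRT7 rose 2.71-fold. KRT80 rose slightly and KRT18 fell slightly. In all, 3 of the 11 tested keratins were higher and 3 lower, where 47.8% of all tested genes were called, 24.2% higher and 23.6% lower. The ICG-001 and DMSO arrays did not overlap in 8 of the 11 keratins, against 61.8% of all tested genes. Under the stricter limits the study set for its signatures (adjusted p no greater than 0.01, fold no less than 1.5), KRT15 and KRT7 were higher and KRT14 lower, where 9.02% of tested genes were higher and 8% lower. The median log2 fold change was 0.21 over the 11 keratins and 0.00081 over all tested genes.

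KRT14 was 10.29, 10.31 and 10.19 on the HSC-3 ICG-001 arrays, against 11.36, 11.29 and 11.26 on the HSC-3 DMSO arrays. All 3 ICG-001 arrays were below all 3 DMSO arrays, and the log2 fold change was -1.04 ± 0.07 (SE, n = 3 each, adjusted p = 0.000101), which is a 2.06-fold fall. KRT5 was 11.59, 11.62 and 11.52 with ICG-001 and 12.18, 12.09 and 12.08 with DMSO. These groups also lay apart, and the fall was smaller, at -0.54 ± 0.07 (adjusted p = 0.00103). The KRT5 values are near the highest value of the whole table, and whether the scale is compressed there was not tested.

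KRT15 was 8.20, 8.16 and 8.09 on the HSC-3 ICG-001 arrays and 6.23, 5.90 and 6.29 on the HSC-3 DMSO arrays. The log2 fold change was 2.01 ± 0.11 (adjusted p = 5.95e-05). KRT7 was 5.81, 6.14 and 6.06 with ICG-001 and 5.08, 4.12 and 4.50 with DMSO, where 2 of the 3 arrays were below the array median. Its change was 1.44 ± 0.23 (adjusted p = 0.00266), and KRT7 left the stricter signature limits without HSC-3 DMSO replicate 3 (adjusted p = 0.0115) or HSC-3 ICG-001 replicate 2 (adjusted p = 0.0129) or 3 (adjusted p = 0.0118). Both genes were thus higher on every ICG-001 array than on any DMSO array, and the DMSO arrays of KRT7 were spread over nearly 1 log2 unit. KRT80 had 8.71 to 8.91 with ICG-001 and 8.38 to 8.40 with DMSO, a change of 0.40 ± 0.08 (adjusted p = 0.0056).

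Among the simple epithelial chains, KRT18 was 9.77, 9.54 and 9.60 on the HSC-3 ICG-001 arrays, against 9.96, 9.87 and 9.92 on the HSC-3 DMSO arrays (-0.28 ± 0.08, adjusted p = 0.0292). This call was lost in 5 of the 6 fits that left out 1 array, those without HSC-3 DMSO replicate 1, 2 or 3 or HSC-3 ICG-001 replicate 2 or 3, with an adjusted p of up to 0.0891. Its partner KRT8 was 7.42, 7.87 and 6.54 with ICG-001 and 7.07, 6.90 and 6.87 with DMSO. Replicate 3 of ICG-001 lay below all DMSO arrays and the other two above them, and the change of 0.33 ± 0.31 was not called (adjusted p = 0.42). Without HSC-3 ICG-001 replicate 3 the change of KRT8 was 0.70 and was called (adjusted p = 0.0164), as was KRT19 at 0.29 (adjusted p = 0.0396). KRT19 had 10.08 to 10.34 with ICG-001 and 9.93 to 10.03 with DMSO over all arrays, and its change of 0.23 was not called (adjusted p = 0.068), though it was with a trend and robust prior in limma (adjusted p = 0.00643). KRT16 (0.14), KRT31 (-0.12) and KRT37 (0.21) were not called. KRT8, KRT18 and KRT19 have many processed pseudogenes and KRT14 and KRT16 are close paralogs, so probes may share signal, and these values are uncertain to that extent. Of the markers of other cells, CD68 was lower on ICG-001 in HSC-3 (7.57 to 7.79 against 7.87 to 8 with DMSO), and the log2 of the summed leukocyte list was 7.77 to 7.97 with ICG-001 and 8.03 to 8.16 with DMSO, with PTPRC between 1.44 and 1.75 on these arrays. Its part in the keratin changes was not tested.

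In CAL27 cells, the basal type I keratins KRT14 and KRT15 both fell on ICG-001, and KRT80 rose. KRT14 was 6.82, 6.88 and 6.96 on the CAL27 ICG-001 arrays and 7.64, 7.76 and 8.13 on the CAL27 DMSO arrays. The log2 fold change was -0.96 ± 0.13 (SE, n = 3 each, adjusted p = 0.00404). KRT15 was 5.91, 6.35 and 6.20 with ICG-001 and 7.09, 7.16 and 7.31 with DMSO, a change of -1.03 ± 0.13 (adjusted p = 0.00273). KRT80 had 10.33 to 10.46 with ICG-001 and 9.72 to 10.02 with DMSO, a change of 0.51 ± 0.10 (adjusted p = 0.02). In these 3 keratins no array of one group reached into the other. Groups did not overlap in 5 of the 11 tested keratins, against 36.8% of all tested genes. The call of KRT80 was lost without CAL27 DMSO replicate 2 (adjusted p = 0.058), without CAL27 ICG-001 replicate 2 (adjusted p = 0.0688) or without CAL27 ICG-001 replicate 3 (adjusted p = 0.0711).

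The count in CAL27 was 1 keratin higher and 2 lower of 11 tested, where 11.2% of all tested genes were called, 5.33% higher and 5.9% lower. At the signature thresholds 0 were higher and 2 were lower, where 1.64% of tested genes were higher and 1.72% lower, and each of the 6 fits with 1 array left out kept at most 1 of the lower keratins (0 without CAL27 DMSO replicate 2 or CAL27 ICG-001 replicate 3), with KRT14 and KRT15 still called in all 6 at adjusted p values of 0.00588 to 0.0211. KRT5 was 11.66, 11.58 and 11.66 with ICG-001 and 11.42, 11.62 and 11.63 with DMSO, with overlap of the groups and a change of 0.08 (95% CI -0.14 to 0.29). KRT7 was 6.73, 5.94 and 6.11 with ICG-001 and 5.47, 5.69 and 5.75 with DMSO. Its groups lay apart, but the change of 0.62 ± 0.19 was not called (adjusted p = 0.081).

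KRT8 was 6.66, 7.17 and 6.43 on the CAL27 ICG-001 arrays and 6.81, 6.48 and 6.84 on the CAL27 DMSO arrays, and KRT18 was 9.77, 9.69 and 9.89 with ICG-001 and 9.70, 9.66 and 9.78 with DMSO. Both overlapped between the groups, with changes of 0.04 (95% CI -0.40 to 0.48) and 0.07 (95% CI -0.14 to 0.28). KRT19, near the array median in this line, changed by 0.25 (adjusted p = 0.44), and without CAL27 DMSO replicate 1 it was called at 0.50 (adjusted p = 0.0356). Of the markers of other cells, CD14 was lower on ICG-001 in CAL27 (4.16 to 4.45 against 5.29 to 5.77 with DMSO), as was CDH5 (7.23 to 7.53 against 8.10 to 8.34 with DMSO). The log2 of the summed leukocyte list was 9.17 to 9.20 with ICG-001 and 9.04 to 9.25 with DMSO, and that of the endothelial list was 7.48 to 7.70 with ICG-001 and 8.22 to 8.46 with DMSO. The other named leukocyte markers had means with ICG-001 and DMSO of 1.60 and 1.55 (PTPRC), 2.18 and 2.29 (CD3E), 2.95 and 3.11 (LYZ) and 9.10 and 8.98 (CD68). For the other endothelial markers they were 2.54 and 2.55 (PECAM1), 3.70 and 3.67 (VWF) and 2.67 and 2.66 (KDR). The part of these lists in the fall of KRT14 and KRT15 was not tested.

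**Figure D3:**
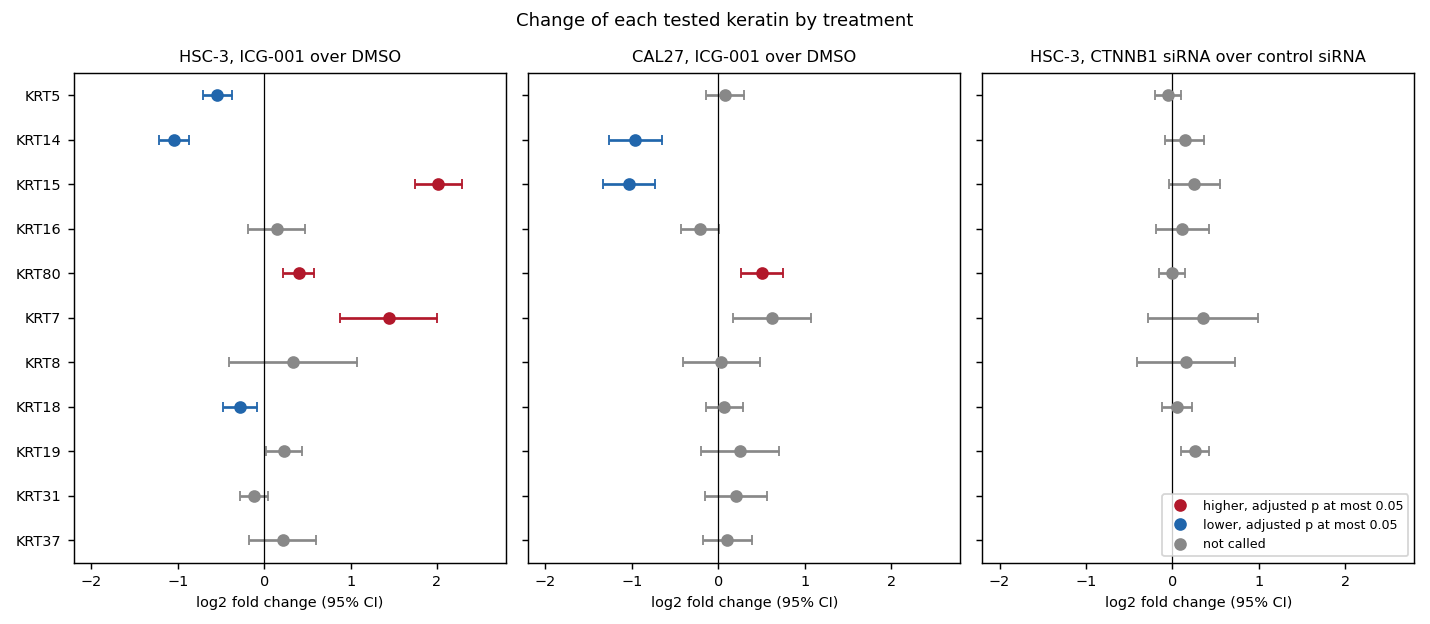
Log2 fold change with its 95% confidence interval (horizontal axis) of the 11 keratins tested on the ICG-001 arrays (rows), for HSC-3 and CAL27 cells on ICG-001 over DMSO and for HSC-3 cells on CTNNB1 siRNA over control siRNA; red marks called higher, blue called lower, gray not called, and KRT31 and KRT37 were not tested on the siRNA arrays, while KRT85, tested there alone, is not drawn. KRT14 lies left of 0 in both lines on ICG-001, KRT15 lies right of 0 in HSC-3 and left of it in CAL27, and all intervals of the knockdown other than that of KRT19 span 0.

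Whether the lines responded differently was tested as a difference of its own, the response of HSC-3 minus the response of CAL27, over the 12 arrays. KRT15 differed most among the keratins, at 3.05 ± 0.18 (SE, adjusted p = 1.11e-06), since it rose in HSC-3 and fell in CAL27. KRT5 differed by -0.62 ± 0.11 (adjusted p = 0.00172), having fallen in HSC-3 with no call in CAL27. KRT18 differed by -0.35 ± 0.12 (adjusted p = 0.0457). With 1 higher and 2 lower, 27.3% of the 11 tested keratins were called, and 27.3% of all tested genes were called, 13.9% higher and 13.3% lower, so the keratins as a family did not stand out by number. At the signature thresholds KRT15 was higher, where 6.49% of tested genes were, and KRT5 lower, where 5.14% were, a call that the signature thresholds did not keep without CAL27 DMSO replicate 1 (-0.55). The KRT18 call was lost in 9 of the 12 fits with 1 array left out, all but those without CAL27 DMSO replicate 3, CAL27 ICG-001 replicate 2 or HSC-3 ICG-001 replicate 1, with an adjusted p of up to 0.108.

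For the other keratins the responses of the lines could not be told apart by this test. The difference was -0.08 for KRT14 (95% CI -0.42 to 0.26) and -0.11 for KRT80 (95% CI -0.39 to 0.17). It was 0.82 for KRT7 (95% CI 0.09 to 1.55, adjusted p = 0.092), and KRT7 was called without CAL27 ICG-001 replicate 1 (1.05, adjusted p = 0.0297) or without HSC-3 DMSO replicate 1 (1.07, adjusted p = 0.0217). On ICG-001, the mean of HSC-3 was 2.00 above that of CAL27 for KRT15, with all HSC-3 arrays above all CAL27 arrays, while on DMSO it was 1.05 below, with all HSC-3 arrays below. The order of the lines in KRT15 was thus the opposite on the inhibitor. For KRT5 the lines overlapped on ICG-001, with means of 11.57 in HSC-3 and 11.63 in CAL27, against 12.12 in HSC-3 and 11.56 in CAL27 on DMSO. For KRT14 the gap between the lines was 3.38 on ICG-001 and 3.46 on DMSO.

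The changes of known type I and type II partners are set side by side here. In HSC-3 cells on ICG-001, KRT5 fell by 0.54 on the log2 scale and its partner KRT14 fell by 1.04, while KRT15, a further partner of KRT5, rose by 2.01. In CAL27 cells KRT5 was not called while KRT14 and KRT15 both fell. KRT7 rose in HSC-3 with no call for KRT19. These are differences of single genes on their own probes, and the differences between partners were not tested.

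The knockdown asks whether siRNA against CTNNB1 moved the keratins in HSC-3. The arrays measure the CTNNB1 transcript and not the β-catenin protein. CTNNB1 averaged 7.16 ± 0.24 in CTNNB1 siRNA cells and 10.22 ± 0.04 in control siRNA cells (SD, n = 3 each), a change of -3.06 (limma adjusted p = 0.000495), so the targeted transcript was lower on all 3 arrays. Of the 10 keratins tested 0 were called by limma, where 0.0867% of all 12682 tested genes, 11 in number, were called (0.00789% higher and 0.0789% lower). The changes of these 10 ran from -0.05 to 0.35, and those of the 38 keratins not tested from -0.49 to 0.84. The largest, picked after its value was seen, was that of KRT6C, at 2.46, 2.51 and 2.63 with CTNNB1 siRNA and 1.74, 1.67 and 1.64 with control siRNA. Its groups lay apart, but all 6 values were at least 2 log2 units below the array median, and 0 keratins were called in the fit without the filter. With a trend and robust prior in limma 1 keratin, KRT19, was called.

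KRT14 was 10.39, 10.24 and 10.52 on the CTNNB1 siRNA arrays and 10.33, 10.14 and 10.27 on the control siRNA arrays, with overlap, and its change was 0.14 (95% CI -0.08 to 0.37). KRT5 was 11.62, 11.56 and 11.64 with CTNNB1 siRNA and 11.61, 11.66 and 11.70 with control siRNA, and its change was -0.05 (95% CI -0.20 to 0.10). The falls of these genes on ICG-001 in HSC-3 came from a separate experiment with its own normalization. Whether the changes differ between the experiments was not tested. KRT15 was 4.86, 4.75 and 4.79 with CTNNB1 siRNA and 4.61, 4.75 and 4.27 with control siRNA, close to the array median (0.25, 95% CI -0.04 to 0.55). The groups met near 4.75, and the change was not called (adjusted p = 0.59).

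KRT7 was 5.21, 5.38 and 4.49 with CTNNB1 siRNA and 4.78, 4.97 and 4.27 with control siRNA, with a wide interval around its change (0.35, 95% CI -0.28 to 0.99). KRT8 was 6.76, 7.64 and 6.72 with CTNNB1 siRNA and 6.78, 6.91 and 6.96 with control siRNA, where replicate 2 of the knockdown stood above the rest. KRT18 was 10.08, 9.94 and 10.02 with CTNNB1 siRNA and 9.92, 10.04 and 9.93 with control siRNA. KRT19 had 9.69 to 9.71 with CTNNB1 siRNA and 9.36 to 9.53 with control siRNA, the single tested keratin whose groups did not overlap, where 19.1% of all tested genes did not. Its change was 0.26 ± 0.07 (SE, adjusted p = 0.36). KRT16, KRT80 and KRT85 changed by 0.11, -0.01 and -0.05.

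Proteins that tie keratin filaments to desmosomes, hemidesmosomes and each other were counted beside the keratins, 17 of 19 listed genes being tested. In HSC-3 cells on ICG-001, 6 were higher and 4 lower, where 24.2% and 23.6% of all tested genes were. FLG, whose product bundles keratin filaments in the outer epidermis, rose by 1.93 ± 0.14 (adjusted p = 0.000127), and TRIM29, a keratin-binding ubiquitin ligase, rose by 0.93 (adjusted p = 0.000115). Without the inhibitor FLG was near the array median, at 4.37 to 4.84 on the HSC-3 DMSO arrays, where 2 of the 3 were above it. PKP2, a plakophilin of desmosomes, changed by -0.78 (adjusted p = 0.000287) and TCHP, the keratin-binding trichoplein, by -0.51 (adjusted p = 0.00276). In CAL27 cells, where 11.2% of all tested genes were called, 1 was higher, PLEC at 0.35 (adjusted p = 0.0401), which links filaments to hemidesmosomes, and 2 were lower, PKP2 at -0.38 (adjusted p = 0.0236) and DSP, the desmosomal anchor of keratins, at -0.33 (adjusted p = 0.0406). The knockdown gave 0 calls by limma among 17 tested. TRIM29 differed between the responses of the lines, at 0.77 (adjusted p = 0.00154). FLG was below the array median on all 6 CAL27 arrays, with means of 3.50 on ICG-001 and 3.49 on DMSO, so that no difference in response is given for it.

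Of the other cytoplasmic intermediate filament genes, 3 of 13 were tested on the ICG-001 arrays, VIM, SYNM and BFSP1. In HSC-3 on ICG-001 1 was higher and 1 lower, and in CAL27 0 were higher and 1 lower. BFSP1 was the one higher in HSC-3, with means of 4.66 on ICG-001 and 4.10 on DMSO. It was above the array median on 1 HSC-3 ICG-001 array and no other of the 12, so it entered the test only through the group where it was higher. VIM, the filament of mesenchymal cells, was at 6.48 to 6.74 on the HSC-3 DMSO arrays and, below the array median, at 4.12 to 4.35 on the CAL27 DMSO arrays, and was not called on ICG-001 in either line. SYNM, for synemin, fell in both lines, at -0.72 in HSC-3 (adjusted p = 0.000354) and -0.40 in CAL27 (adjusted p = 0.0431). Of 32 transcription factors known for keratin genes or epidermal differentiation, 26 were tested, with 11 higher and 5 lower in HSC-3 and 0 higher and 2 lower in CAL27. In HSC-3 the 4 with the smallest adjusted p were ELF3 (2.50), an epithelial ETS factor of differentiation, PRDM1 (1.46), a repressor in maturing keratinocytes, ETS1 (-1.14), and HES1 (1.21), a Notch target. In CAL27 they were FOXM1 (-0.47), a cell cycle factor, and ZNF750 (-0.66), a factor of epidermal differentiation. ZNF750 was above the array median on 1 of the 3 CAL27 DMSO arrays and on no other array of the ICG-001 experiment, so it entered the test only through the group where it was higher. ELF3, HES1 and PRDM1 also differed between the responses of the lines (2.77, 1.49 and 1.47). The knockdown gave 0 calls by limma among 23 tested factors. These counts stand beside backgrounds of 47.8% called in HSC-3 and 11.2% in CAL27, and whether any of these factors acts on a keratin was not tested.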

How the data were processed

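The 18 cultures were profiled with the Human Gene 2.0 ST array of Affymetrix, and groups follow the array titles. The authors deposited log2 values computed by RMA with affy 1.36.1 in R 2.15.1 per the submitters' notes, 1 probeset for each Entrez gene. RMA equalizes the distributions of the arrays, so a shift shared by most genes would not show. The 12 ICG-001 and DMSO arrays and the 6 siRNA arrays (with further arrays not used here) were normalized apart, and no level was compared between these sets. The build behind the probe map was not given in the sources used here. The annotation named 22458 of 23786 probesets, none with several symbols. The 1328 others, keratins among them, count in totals and were not analysed by name. Another 8 KRT rows, for pseudogenes and the like, were left out by the rule.

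Tests in limma 3.58.1 (R 4.3.3) took the probesets that exceeded the array median on 1 or more arrays of a set, 13493 for ICG-001 and 12682 for siRNA, with Benjamini-Hochberg adjustment over all of them. Each comparison was fitted on its 6 arrays, and the difference in response on 12. The steps were tested on simulated data. The p-values measure the spread between wells only. The main fits did not treat wells of the same replicate number as pairs. Deviations of same-numbered arrays correlated at an r of 0.03 to 0.18 in CAL27 and -0.04 to 0.05 in the other comparisons of 2 groups. Members, classes and lists were chosen with earlier results of these data known. Values on each array are given for keratins called at a fold of at least 1.5 on treatment or between the lines and for KRT5, KRT14, KRT8 and KRT18, and up to 4 genes per list and comparison with the smallest adjusted p are named. Alternatives were no filter, a median exceeded on 3 arrays, limma's trend with a robust prior, cyclic loess, equal array medians, a replicate block, the stricter signature thresholds, 1 fit over 12 arrays, and leaving out each array.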

Additional observations from a re-analysis of the deposited data

Results flagged for a closer look

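The responses of the lines to ICG-001 differed by a test of the difference itself, HSC-3 minus CAL27 on the log2 scale, for 3 keratins of the 11 tested, where 27.3% of all tested genes were called. The difference was 3.05 for KRT15 (adjusted p = 1.11e-06, limma over 12 arrays), which was higher on ICG-001 in HSC-3 and lower in CAL27. It was -0.62 for KRT5 (adjusted p = 0.00172) and -0.35 for KRT18 (adjusted p = 0.0457), both lower on ICG-001 in HSC-3 with no call in CAL27. In the fits that left out 1 array each, the difference stayed between 2.92 and 3.15 for KRT15 and between -0.66 and -0.55 for KRT5, called in all 12, and between -0.41 and -0.30 for KRT18, called in 3 of 12.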

How the results depend on the processing

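Of 262 recomputed values for the 19 called keratin values, 235 kept direction and call, 27 kept the direction and lost the call, and 0 reversed. At the signature thresholds, 1 keratin was lower in HSC-3 on ICG-001, 0 were higher in CAL27 on ICG-001, and 1 was lower in the difference between the lines. A trend and robust prior gave 4 higher in HSC-3 on ICG-001 (KRT19 gained, adjusted p = 0.00643), 4 higher between the lines on DMSO (KRT18 gained), 2 higher in CAL27 (KRT7 gained, adjusted p = 0.0416) and 1 higher in the knockdown (KRT19, adjusted p = 0.0323). Cyclic loess left 1 lower in the difference between the lines (KRT18 lost, adjusted p = 0.0737) and 2 lower in HSC-3 on ICG-001 (KRT18 lost, adjusted p = 0.0573). Without a filter 6 were higher and 5 lower in HSC-3 DMSO against CAL27 DMSO, with KRT9, KRT10 and KRT72 gained as higher, KRT23 and KRT36 gained as lower and KRT16 lost (adjusted p = 0.0505). Without it KRT20 was also gained as lower in HSC-3 on ICG-001 (adjusted p = 0.0224) and in the difference between the lines (0.037), where KRT18 was lost (0.0724). The gained keratins were below the array median on all arrays. Leaving out 1 array gave 3 to 5 higher and 2 to 3 lower in HSC-3 on ICG-001, 0 to 2 higher and 2 lower in CAL27 on ICG-001, 0 in the knockdown, 1 to 2 higher and 1 to 2 lower in the difference between the lines, and 3 higher and 3 to 4 lower between the lines on DMSO. At the signature thresholds it gave 1 to 2 higher and 1 lower in HSC-3, 0 higher and 0 to 1 lower in CAL27, 1 higher and 0 to 1 lower in the difference, and 2 to 3 higher and 2 to 3 lower on DMSO. With all arrays kept, 2 of the 11 tested keratins were higher and 3 lower on DMSO at these thresholds. Of all 13493 tested genes 2008 were higher and 2014 lower there.

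The main fits did not pair the arrays by replicate number, though same-numbered arrays of CAL27 deviated together weakly (r of up to 0.18). With the replicate block, HSC-3 on ICG-001 kept 3 higher and 3 lower keratins and CAL27 kept 1 higher and 2 lower, while at the signature thresholds 1 was higher in HSC-3 and 1 lower in CAL27. On DMSO 3 were lower in HSC-3, as KRT16 lost its call (adjusted p = 0.0559), and the block changed no other call. The cause of these shifts was not tested. With 3 arrays a group, intervals were wide where wells spread, as for KRT7 in CAL27 (0.62, 95% CI 0.17 to 1.07), and for KRT19 near the array median in CAL27 (0.25, 95% CI -0.20 to 0.70).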
